A study of Mus musculus with 15 samples.

Results

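The 6 NMDA receptor subunit genes Grin1, Grin2a, Grin2b, Grin2c, Grin2d and Grin3a were followed through bulk RNA sequencing of mouse medial prefrontal cortex (mPFC). They were matched by Entrez gene identifier to mouse symbols and make up 6 of the 27179 genes in the table. The matching did not use their values, but the members were chosen with earlier results of these data known. All 6 were found and all 6 passed the filter on low counts that left 16816 genes for testing. Grin3b, the remaining gene of the family, is no member and lay at 0.273 ± 0.111 CPM (SD, n = 15), CPM being the read count of a gene scaled to a common library size.

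The tissue was dissected from C57BL/6J mice that had or had not received ABX, which in this field usually stands for an antibiotic mixture. Mice were sampled before or after fear extinction, in which a learned fear response declines through training. There were 3 pre-extinction non-ABX libraries (replicates 1, 3 and 4), 4 pre-extinction ABX, 4 post-extinction non-ABX and 4 post-extinction ABX libraries. No genetic change is labelled in any group, and the sources used here do not give the agents, dose, age, sex, batch or the number of mice per library. The p-values therefore measure the spread between these libraries, which may be partly technical.

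NMDA receptors are glutamate-gated cation channels that open when glutamate and a co-agonist, glycine or D-serine, are bound while the membrane is depolarised. Calcium entering through them starts the lasting changes of synaptic strength that learning draws on, fear extinction included. Each receptor combines the obligatory GluN1 subunit, encoded by Grin1, with GluN2 subunits (Grin2a to Grin2d), which bind glutamate and set the kinetics, or with GluN3 subunits (Grin3a), which bind glycine and lower calcium permeability.

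A stretch of coding sequence is printed for Grin1, the obligatory subunit, and Grin2c, to show the coding sequence around the channel gate with its codon composition marked. Each line gives 81 coding bases (27 codons), 5′ to 3′ along the minus strand, which encodes both genes. Bases 31 to 51 are a run of 7 codons that encode the same amino acids in all members, part of the conserved gate motif of the third membrane segment. Between Grin1 and Grin2c the encoded amino acids also match just beyond both ends of this run. Capitals mark a G or C at the third position of a codon. The sequences are from the GENCODE transcripts of build GRCm38 (mm10).
Grin1: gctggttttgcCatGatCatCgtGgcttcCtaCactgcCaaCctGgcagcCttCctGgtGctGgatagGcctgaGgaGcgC
Grin2c: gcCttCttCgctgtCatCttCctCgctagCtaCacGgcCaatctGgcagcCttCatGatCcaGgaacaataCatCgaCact

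Within this stretch the third codon position was G or C in 19 of 27 codons of Grin1 and in 20 of 27 codons of Grin2c. Over whole coding regions it was G or C in 71.3% of codons of Grin1, 64.6% of Grin2a, 67.5% of Grin2b, 74.7% of Grin2c, 78.5% of Grin2d and 58.9% of Grin3a, so high values there were not limited to members with GC-rich transcripts. Each stretch lies in a single coding exon, exon 15 of 21 in Grin1 (chr2:25297172-25297252) and exon 11 of 15 in Grin2c (chr11:115253722-115253802).

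Over whole transcripts the members differed widely in base composition. The GC content of the longest transcript was 59.4% in Grin1, 62.1% in Grin2c and 65% in Grin2d, against a median of 48.7% over genes. It was 44.8% in Grin2a, 45.7% in Grin2b and 49.2% in Grin3a. Between Grin2a, Grin2b and Grin1 the contrast was larger outside the coding region (42.2%, 44% and 67.3% G or C) than inside it (50.8%, 52.9% and 55.6%). In Grin2c and Grin2d both regions were GC-rich, at 62.4% and 67.3% inside and 61.1% and 58.7% outside the coding region. Transcript length divided the members in a similar way, with 4276 bases for Grin1, 4895 for Grin2c and 5431 for Grin2d. The longest transcripts of Grin2a and Grin2b had 14634 and 24060 bases, and that of Grin3a had 7491.

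The loci of the whole genes differ in size as well. Grin1 (Entrez 14810) spans chr2:25291177-25319187 and Grin2c (Entrez 14813) chr11:115249169-115267297. Grin2a (Entrez 14811) spans chr16:9567901-9996083 and Grin2b (Entrez 14812) chr6:135713221-136173615, each over many introns. Grin2d (Entrez 14814) spans chr7:45831883-45871194 and Grin3a (Entrez 242443) chr4:49661611-49846023. The 3′ part of Grin1 overlaps the antisense RNA gene Grin1os, counted at 12.2 ± 2.78 CPM (SD, n = 15), and Ppp3r2 lies inside Grin3a. The kit used does not keep strand, so reads of overlapping genes cannot be told apart in these counts.

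The libraries held 44254906 to 57929503 counts each, enough for every member to be counted at 154 reads or more in every library. The dissected tissue matched its label: all 5 excitatory neuron markers were present, summing to 5947 to 7680.3 CPM per library, and the least abundant of them, Neurod6, averaged 116 CPM. Striatal neuron markers summed to 56.3 to 78.8 CPM (4 of 4 genes present) and choroid plexus markers to 2.41 to 15.1 CPM (3 of 3). The 4 blood genes summed to 0.0211 to 5.81 CPM, with Hba-a1 at 0 in all libraries. The highest choroid plexus and blood sums were both in post-extinction ABX libraries, where these sums ranged from 3.19 to 15.1 and from 0.167 to 5.81 CPM. Because the RNA is from bulk tissue, fewer cells of a type and less RNA per cell cannot be told apart.

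A pair of library-wide quantities is used beside the results. The GC slope of a library is the change in its log2 deviation from the mean of all libraries per 10 percentage points of transcript GC content, fitted over genes. The length slope is the change per doubling of transcript length, fitted together with GC content. The GC slope averaged 0.04 (range -0.142 to 0.319) in pre-extinction non-ABX, -0.21 (-0.411 to 0.042) in pre-extinction ABX, 0.17 (0.047 to 0.29) in post-extinction non-ABX and 0.01 (-0.123 to 0.123) in post-extinction ABX libraries. The mean slope was thus lower in the ABX libraries at both stages.

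Grin1 was the most abundant subunit per length of sequence in every library. Its level averaged over 15 libraries was 32.8 CPM per kilobase of merged exons. Grin2c followed at 8.69, Grin2b at 3.75, Grin3a at 2.04, Grin2a at 1.40 and Grin2d at 0.843 CPM per kilobase. The order of the means was the same in all 4 groups, and each gene exceeded the next in 15 of 15 libraries, except that Grin2a exceeded Grin2d in 14 of 15. The ranges over libraries nevertheless met for Grin2b (1.76 to 5.58) and Grin3a (1.61 to 2.42), for Grin3a and Grin2a (0.789 to 1.88), and for Grin2a and Grin2d (0.512 to 1.23).

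The places of Grin2b, a principal GluN2 subunit of the forebrain, and Grin2c depended on the length used, since most of the long Grin2b transcript lies outside the coding sequence. Per kilobase of coding sequence Grin1 was at 108 CPM, Grin2b at 21.0 and Grin2c at 11.8, and Grin2b exceeded Grin2c in 13 of 15 libraries. Here the counts of the whole gene, with reads from outside the coding sequence, were divided by coding length alone. This raises genes with long noncoding parts, which held 19614 bases in the longest transcript of Grin2b and 1178 in that of Grin2c. Grin3a was then at 7.37, Grin2a at 5.70 and Grin2d at 1.41 CPM per kilobase. With the longest transcript, the levels were 74.5 for Grin1, 8.94 for Grin2c, 3.87 for Grin2b, 3.35 for Grin3a, 1.71 for Grin2a and 1.03 for Grin2d, and Grin2b exceeded Grin3a in 10 of 15 libraries. Grin1 stayed first and Grin2d last under all 3 lengths. For comparison, the 4 AMPA receptor subunits, which carry the fast component of glutamate transmission, lay between 24.8 (Gria4) and 88.4 (Gria1) CPM per kilobase of merged exons, so Grin1 fell inside their range and the other NMDA subunits below it.

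**Figure D1:**
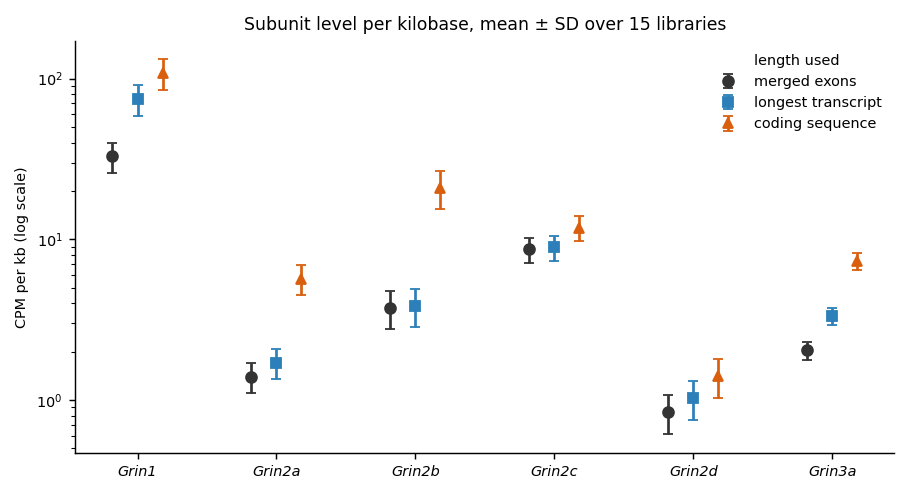
Level of each NMDA receptor subunit in CPM per kilobase (log axis), as the mean ± SD over 15 libraries, for 3 definitions of gene length (marker shapes). Grin1 is highest and Grin2d lowest with each length, while Grin2b moves above Grin2c only with coding length.

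None of the 6 subunits passed the test between ABX and non-ABX libraries or between the stages. Differences were tested with edgeR's quasi-likelihood test over all 16816 genes, with a call meaning a Benjamini-Hochberg adjusted p under 0.05, in 7 comparisons: ABX against non-ABX at each stage, after against before extinction in each arm, their interaction, and each factor averaged over the other. Members called numbered 0 of 6 in each. The share of all genes called was 0.00595% for ABX before extinction, 0.0178% for ABX after extinction, 0.0% for stage in non-ABX libraries, 0.0951% for stage in ABX libraries and 0.0% for the interaction. It was 0.624% for ABX averaged over stages and 0.963% for stage averaged over arms, so a count of 0 among 6 genes is close to this background. At an unadjusted edgeR p under 0.05 the members numbered 3 (ABX before), 2 (ABX after), 0 (stage in non-ABX), 3 (stage in ABX), 0 (interaction), 3 (ABX averaged) and 3 (stage averaged). The corresponding shares of all genes were 16%, 13.3%, 4.94%, 16.6%, 2.06%, 30.6% and 20.4%. In the comparisons with 0 calls over all genes, 830 genes (stage in non-ABX) and 346 genes (interaction) had an unadjusted edgeR p under 0.05, and DESeq2 called 19 and 4.

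Grin1, the subunit every NMDA receptor needs, had lower means in the ABX groups at both stages. Before extinction it was at 296, 443 and 288 CPM in the non-ABX libraries and at 189, 282, 242 and 312 CPM in the ABX libraries. The highest value was that of non-ABX replicate 3 and the lowest that of ABX replicate 1. The groups overlapped, as for all 6 members at this stage, beside 6.76% of all tested genes that did not. On the log2 scale the difference was -0.42 (SE 0.17, edgeR adjusted p = 0.311), and -0.19 (edgeR adjusted p = 0.992) without non-ABX replicate 3. After extinction the non-ABX libraries were at 369, 423, 382 and 350.2 CPM and the ABX libraries at 255, 273, 339 and 336 CPM, a log2 difference of -0.34 (SE 0.15, edgeR adjusted p = 0.359). Here every ABX library lay below every non-ABX library. Among the members only Grin1 was separated in this way, while 11.1% of all tested genes did not overlap between these groups and 6.36% of all tested genes were lower with ABX without overlap.

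Averaged over both stages, Grin1 differed with ABX by -0.38 on the log2 scale (SE 0.11, edgeR adjusted p = 0.0704). Removing the GC trend of each library gave -0.11 (edgeR adjusted p = 0.122). The 5 excitatory neuron markers were present in all groups. Camk2a, 1 of the 5, made up most of their summed level, with group means from 4524 to 5254 CPM. By library, Grin1 and the sum of the 5 markers were both lowest in a pre-extinction ABX library. Grin1 was highest in a pre-extinction non-ABX library and the marker sum in a post-extinction non-ABX library. The 5 markers summed to 6462 to 7571 CPM in pre-extinction non-ABX and 5947 to 6857 in pre-extinction ABX libraries. After extinction they summed to 6835 to 7680.3 in non-ABX and 6493 to 7372 in ABX libraries. The sum of the 4 endothelial markers, all present, did not overlap between the arms. Taken singly, 6.76% of all tested genes before and 11.1% after extinction did not overlap, a share that does not apply to sums. The markers summed to 141 to 168 CPM without and 95.8 to 134 with ABX before extinction. After extinction the sums were 144 to 160.4 without and 101 to 130.4 with ABX. The sums of the 5 astrocyte markers, all present, overlapped, at 1086 to 1162 and 1092 to 1391 CPM before and 972 to 1179.8 and 1126 to 1279.5 CPM after extinction, in the same order. The 7 interneuron markers, all present, overlapped too. They summed to 814 to 858 CPM without and 795 to 920.2 with ABX before extinction. After extinction these sums were 809.7 to 839 without and 787 to 892 with ABX. Over the 15 libraries, r with Grin1 was 0.90 for the excitatory neuron and 0.69 for the endothelial markers. It was -0.43 for the interneuron and -0.70 for the astrocyte markers. The part of these cell types in the result was not tested.

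Grin2c and Grin2d, GluN2 subunits that give weaker magnesium block and in cortex are known from astrocyte-associated and interneuron expression, resembled Grin1. Before extinction Grin2c was at 43.1, 57.3 and 39.5 CPM without ABX and at 32.7, 34.3, 33.0 and 42.9 CPM with ABX. After extinction it was at 54.9, 55.2, 49.3 and 43.5 CPM without ABX and at 41.4, 38.4, 46.0 and 45.2 CPM with ABX. Both pairs of groups overlapped, in each case through 1 or more ABX libraries above the lowest non-ABX library. The log2 fold changes were -0.38 (SE 0.13, edgeR adjusted p = 0.311) before and -0.25 (SE 0.12, edgeR adjusted p = 0.381) after extinction. The former was -0.21 without pre-extinction non-ABX replicate 3.

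Grin2d was the scarcest member, at 5.55, 8.20 and 4.36 CPM without ABX and 3.41, 4.21, 4.12 and 4.98 CPM with ABX before extinction. After extinction it was at 6.87, 8.06, 6.99 and 6.15 CPM without ABX and 4.02, 4.61, 6.02 and 6.62 CPM with ABX. As for Grin1 and Grin2c, pre-extinction non-ABX replicate 3 was the highest of all 15 libraries. The log2 fold changes with ABX were -0.53 (SE 0.20, edgeR adjusted p = 0.311) before and -0.40 (SE 0.19, edgeR adjusted p = 0.369) after extinction, the former being the largest of any member at that stage. It was -0.25 without pre-extinction non-ABX replicate 3.

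Averaged over stages, the ABX log2 fold changes were -0.32 (SE 0.09, edgeR adjusted p = 0.0663) for Grin2c and -0.46 (SE 0.14, edgeR adjusted p = 0.0702) for Grin2d. Removing the GC trend gave 0.04 (edgeR adjusted p = 0.704) and -0.04 (edgeR adjusted p = 0.738). The averaged ABX call for Grin1, Grin2c and Grin2d turned on the test and on single libraries. DESeq2 called all 3 (adjusted p = 0.0242, 0.0191 and 0.0204), where it called 11.8% of genes. Without pre-extinction ABX replicate 4, edgeR called the same 3 (adjusted p = 0.0271, 0.0232 and 0.0305) with 18.2% of genes called, and without pre-extinction non-ABX replicate 4 again the same 3 (edgeR adjusted p = 0.0487, 0.0472 and 0.0465) with 6.2% of genes called. Without pre-extinction non-ABX replicate 3 the 3 values were -0.26, -0.23 and -0.32 (edgeR adjusted p = 0.263, 0.237 and 0.262). Voom with quality weights called Grin2c alone (adjusted p = 0.0383), with 5.36% of genes.

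Grin2a and Grin2b, the principal GluN2 subunits of the adult forebrain, had negative ABX fold changes too, with a wide spread between libraries. Grin2b was at 90.9, 107 and 103 CPM in pre-extinction non-ABX and at 68.1, 109, 104 and 80.7 CPM in pre-extinction ABX libraries. After extinction it ranged from 61.7 CPM in non-ABX replicate 1 to 139 CPM in replicate 4 (124 and 103 CPM in replicates 2 and 3), and from 43.7 CPM in ABX replicate 1 to 107 CPM in replicate 3 (87.6 and 70.6 CPM in replicates 2 and 4). The groups overlapped at both stages, and each post-extinction group covered more than a 2-fold range. The log2 fold changes with ABX were -0.15 (SE 0.27, edgeR adjusted p = 0.759) before and -0.47 (SE 0.25, edgeR adjusted p = 0.405) after extinction.

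Grin2a was at 24.4, 30.6 and 31.2 CPM in pre-extinction non-ABX libraries and at 22.0, 30.1, 33.7 and 24.4 CPM in pre-extinction ABX libraries. After extinction it was at 17.8, 28.6, 23.3 and 27.7 CPM without ABX and 14.2, 22.0, 24.5 and 21.2 CPM with ABX. Replicate 1 was the lowest library of its group in all 4 groups, for Grin2a and for Grin2b alike. The Grin2a log2 fold change with ABX was -0.06 (SE 0.19, edgeR adjusted p = 0.865) before and -0.25 (SE 0.18, edgeR adjusted p = 0.503) after extinction. Removing the GC trend left the values averaged over stages on the same side of 0, at -0.15 before and -0.24 after removal for Grin2a and at -0.31 and -0.38 for Grin2b.

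Grin3a was the only member with positive ABX fold changes at both stages, and its sign after extinction changed with the GC trend removed (-0.02). Before extinction it was at 25.6, 23.4 and 26.9 CPM without ABX and at 27.0, 29.5, 29.7 and 25.1 CPM with ABX. After extinction it was at 21.4, 22.0, 23.5 and 27.4 CPM without ABX and at 19.8, 28.8, 24.0 and 22.3 CPM with ABX. The groups overlapped, and the log2 fold changes were 0.14 (SE 0.12, edgeR adjusted p = 0.504) and 0.01 (SE 0.11, edgeR adjusted p = 0.972).

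**Figure D2:**
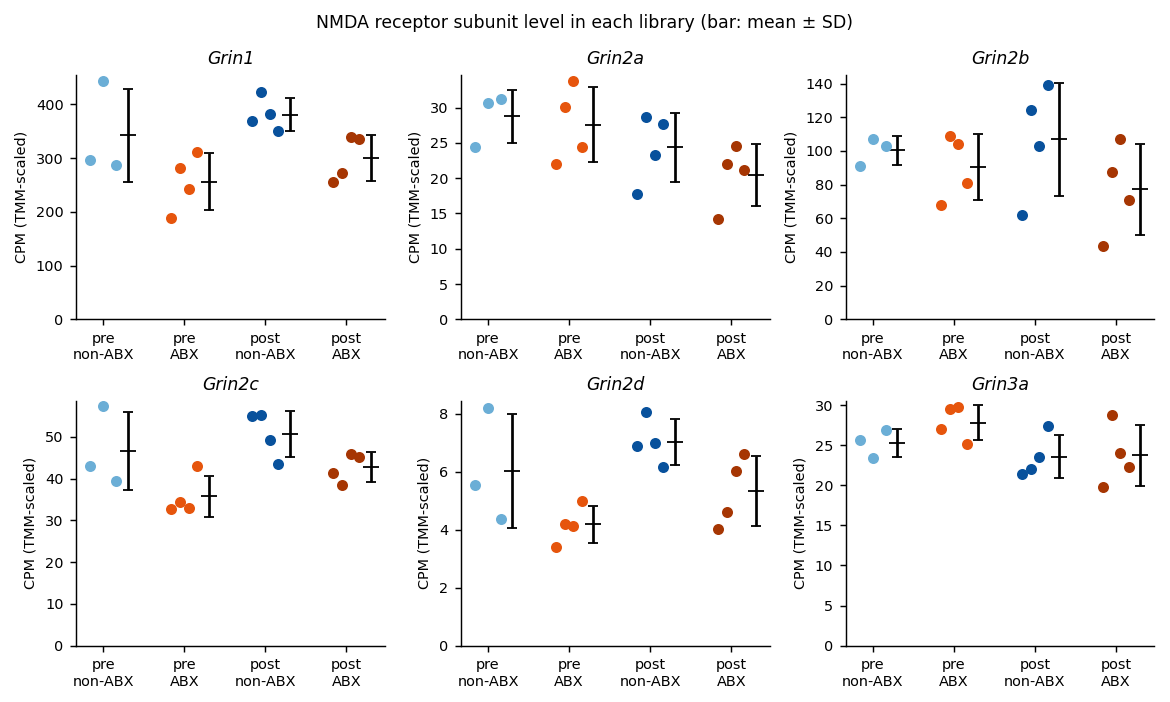
Level of each subunit in CPM (linear axes from 0) in each of the 15 libraries, 1 point per library, with the group mean ± SD as a bar beside it. The post-extinction ABX points of Grin1 (255 to 339 CPM) all lie below the post-extinction non-ABX points (350.2 to 423 CPM), while the groups overlap in the other panels.

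The comparison of libraries after extinction with those before it asks how the subunits differed with stage in each arm, and no member passed. In ABX libraries the log2 fold change of Grin2a was -0.43 (edgeR adjusted p = 0.261, SE 0.18), the largest of any member in that comparison. It was 0.35 for Grin2d (SE 0.19, edgeR adjusted p = 0.338), 0.26 for Grin2c (SE 0.12, edgeR adjusted p = 0.296) and 0.23 for Grin1 (SE 0.15, edgeR adjusted p = 0.408). Grin2b and Grin3a were both at -0.23 (edgeR adjusted p = 0.596 and 0.298). The 3 GC-rich members therefore had positive values and the other 3 negative values, and the groups overlapped for all 6 members, beside 5.47% of all genes without overlap.

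In non-ABX libraries the stage values had the same signs, apart from Grin2b, with smaller sizes when all libraries were used. They were 0.15 for Grin1, -0.24 for Grin2a, 0.09 for Grin2b, 0.12 for Grin2c, 0.22 for Grin2d and -0.10 for Grin3a, with edgeR adjusted p from 0.896 to 0.933. The sizes for Grin1, Grin2c and Grin2d rested on pre-extinction non-ABX replicate 3, without which they were 0.38, 0.30 and 0.50, above those in ABX libraries. The groups of each member overlapped, beside 5.91% of all genes without overlap. The interaction of ABX with stage ran from -0.32 (Grin2b) to 0.14 (Grin2c), it changed sign for Grin1, Grin2c and Grin2d without that library (-0.15, -0.03 and -0.14), and its adjusted p was 1.0 for all 6 members in edgeR. The comparisons within an arm or a stage share libraries, so their values are not independent of each other.

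Averaged over both arms, the stage log2 fold change was -0.33 for Grin2a (SE 0.13, edgeR adjusted p = 0.183), -0.17 for Grin3a (SE 0.08, edgeR adjusted p = 0.243) and -0.07 for Grin2b (edgeR adjusted p = 0.835). It was 0.19 for Grin1 (edgeR adjusted p = 0.318), 0.19 for Grin2c (edgeR adjusted p = 0.238) and 0.28 for Grin2d (edgeR adjusted p = 0.256). With the GC trend removed, Grin1, Grin2c and Grin2d came to 0.02, -0.03 and 0.03, while Grin2a was at -0.25 and Grin3a at -0.16. Without pre-extinction non-ABX replicate 3, the library with the highest GC slope, edgeR called Grin2c (0.28, adjusted p = 0.0408) and Grin2d (0.43, adjusted p = 0.0427), along with 13.3% of all genes. Voom with quality weights called Grin1, Grin2c, Grin2d and Grin3a for stage averaged over arms, with 37.8% of genes, and Grin1 and Grin2d for stage in non-ABX libraries, with 19.0% of genes.

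**Figure D3:**
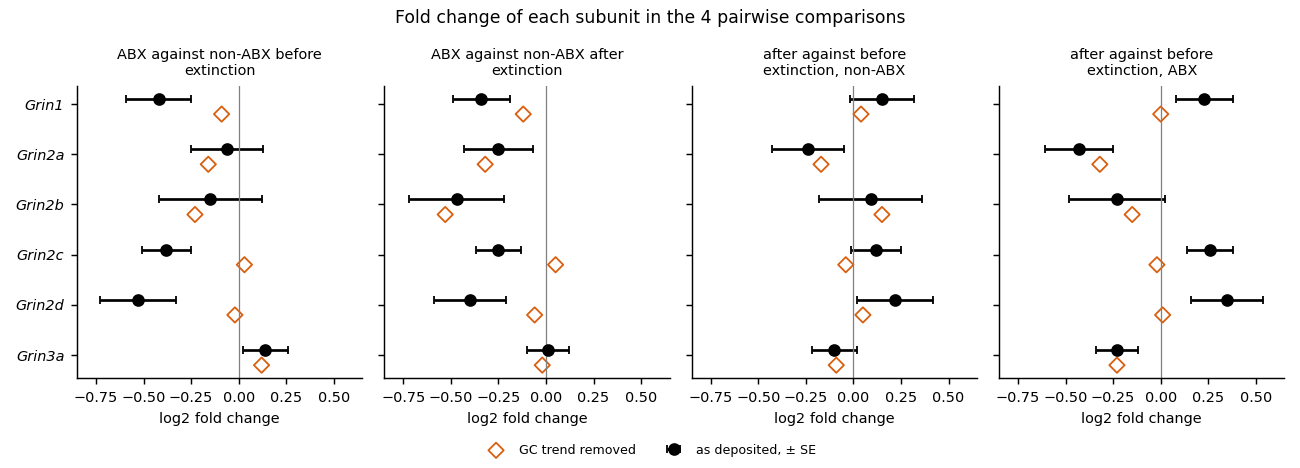
Log2 fold change of each subunit in the 4 pairwise comparisons, with filled circles and bars for the value ± SE from counts as deposited and open diamonds for the value after removal of each library's GC trend. For Grin1, Grin2c and Grin2d the diamonds lie nearer to 0 than the circles in all 4 panels, and for Grin3a circle and diamond stay close together. For Grin2a and Grin2b the diamonds lie nearer to 0 in some panels and farther in others. Grin2a moves from -0.43 to -0.32 for stage in ABX libraries and from -0.06 to -0.16 for ABX before extinction.

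The balance of Grin2a to Grin2b is of interest because GluN2B-containing receptors predominate early in life and GluN2A-containing ones, with faster kinetics, increase as the cortex matures. The log2 ratio of their CPM was -1.90, -1.80 and -1.72 in pre-extinction non-ABX libraries and -1.63, -1.86, -1.62 and -1.73 in pre-extinction ABX libraries. It was -1.79, -2.12, -2.15 and -2.33 in post-extinction non-ABX libraries and -1.63, -2.0, -2.12 and -1.73 in post-extinction ABX libraries. The means were -1.81 ± 0.09 (SD, n = 3), -1.71 ± 0.11, -2.10 ± 0.22 and -1.87 ± 0.23 (SD, n = 4 each). The ratio was thus lowest on average in post-extinction non-ABX libraries, the ranges of the groups overlapped, and no test was made of it. Removing the GC trend moved no group mean by more than 0.02.

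By how they varied from library to library, Grin1, Grin2c and Grin2d formed a set and Grin2a and Grin2b another. Grin3a belonged to neither. Over the 15 libraries Grin1 followed the library GC slope with Pearson's r = 0.97 and Spearman's rho = 0.95 (permutation p = 1e-05 for each, the smallest that 100000 random orders can give, adjusted p = 4e-05 over 12 relations). Without the 2 libraries farthest from the median slope r was 0.95, and with group means removed it was 0.96. Grin2c (r = 0.96, rho = 0.99) and Grin2d (r = 0.95, rho = 0.94) followed it likewise, each with permutation p = 1e-05 and adjusted p = 4e-05, and with r = 0.94 and 0.95 without the 2 farthest libraries. These 3 are the members with GC-rich transcripts, and the slope is itself fitted on the deviations of genes by GC content. Of 13423 genes, 8.13% had r at or above 0.95, as did 46.0% of the 768 genes with at least the GC content of Grin1, whose median r was 0.94. The p-values test against no relation and do not set the members apart from other GC-rich genes.

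The remaining members did not rise with the GC slope. Grin3a was inversely related to it (r = -0.63, rho = -0.70, permutation p = 0.0128 and 0.00503, adjusted p = 0.0256 and 0.0101, r = -0.54 without the 2 farthest libraries). Grin2a (r = -0.03, rho = -0.11, permutation p = 0.916 and 0.694) and Grin2b (r = 0.22, rho = 0.25, permutation p = 0.432 and 0.367) showed no relation that passed. Both instead followed the length slope. For Grin2b r was 0.92 and rho 0.78 (permutation p = 2e-05 and 0.00102, adjusted p = 6e-05 and 0.00306), with r = 0.80 without the 2 farthest libraries.

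For Grin2a the relation to the length slope was r = 0.86 and rho = 0.72 (permutation p = 0.0001 and 0.00327, adjusted p = 0.00024 and 0.00785), and r was 0.58 without the 2 farthest libraries, so it rests in part on them. Of 13423 genes 0.641% had r with the length slope at or above 0.86, as did 6.85% of the 73 genes with transcripts at least as long as that of Grin2a. Both shares include Grin2a and Grin2b, and the limit is the lower r of these members. The median r of the 73 genes was 0.43. The length slope is likewise fitted on the deviations of genes, and the p-values test against no relation. Post-extinction ABX replicate 1 had the lowest length slope (-0.102), followed by post-extinction non-ABX replicate 1 (-0.045) and pre-extinction ABX replicate 1 (-0.033), and replicate 1 had the lowest length slope of its group in all 4 groups. Post-extinction ABX replicate 1 also held the lowest level of Grin2a, Grin2b and Grin3a among all libraries. For Grin3a the relation did not pass (r = 0.53, rho = 0.35, permutation p = 0.0395 and 0.198, adjusted p = 0.0678 and 0.264), and r was -0.04 without the 2 farthest libraries. The relations of Grin1, Grin2c and Grin2d to the length slope had r of 0.41, 0.12 and 0.37 (rho 0.40, 0.21 and 0.37, permutation adjusted p = 0.19, 0.729 and 0.233 for r). What the slopes stem from was not tested.

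**Figure D4:**
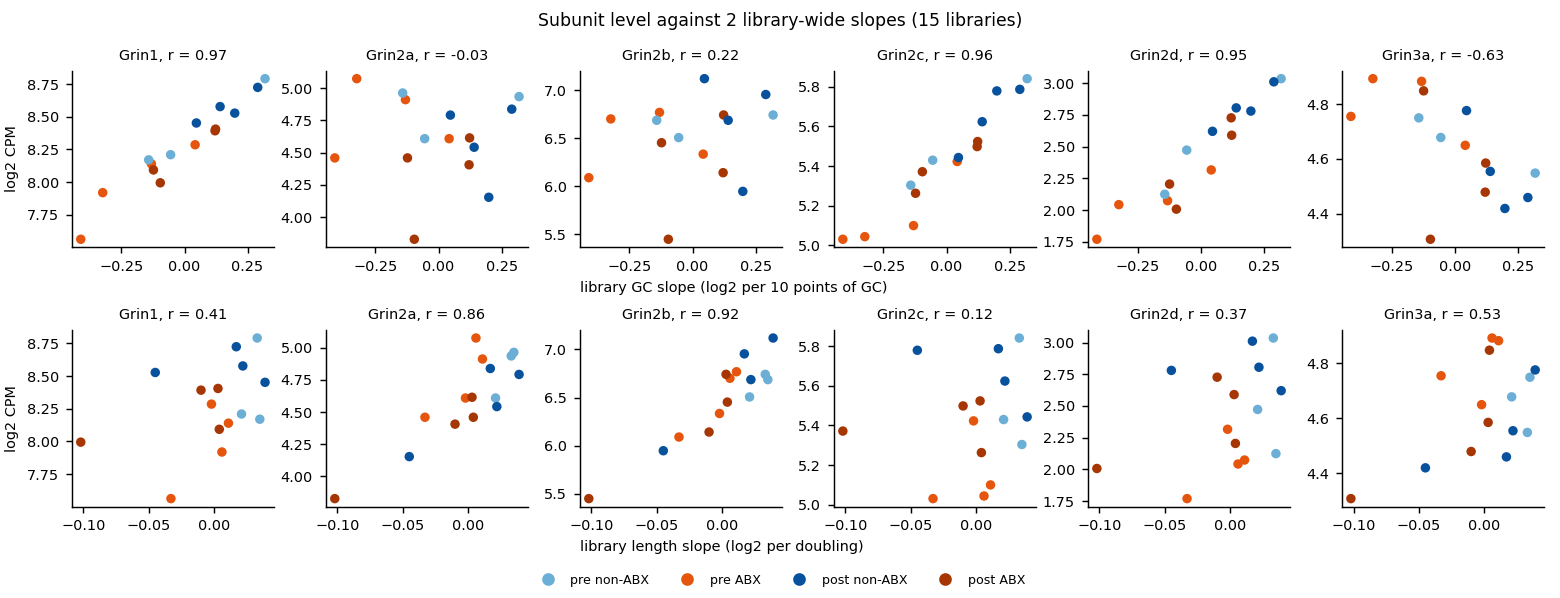
Log2 CPM of each subunit (vertical axes) against the GC slope (top row) and the length slope (bottom row) of the same library, 1 point per library coloured by group, with Pearson's r over 15 libraries. Grin1, Grin2c and Grin2d line up with the GC slope (r = 0.97, 0.96 and 0.95), and Grin2a and Grin2b with the length slope (r = 0.86 and 0.92).

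The same division appeared between members. Of 15 pairs, Grin1 and Grin2d had r = 0.96 (rho = 0.97), Grin2c and Grin2d r = 0.93 (rho = 0.95) and Grin1 and Grin2c r = 0.91 (rho = 0.96), each with permutation p = 1e-05 and adjusted p = 5e-05. Without the 2 libraries farthest from the median of the first gene, r was 0.95, 0.89 and 0.89. Grin2a and Grin2b had r = 0.87 (rho = 0.78, permutation p = 6e-05 and 0.00099, adjusted p = 0.000225 and 0.00371) and 0.80 without the 2 farthest. Grin2c and Grin3a were inversely related (r = -0.71, rho = -0.72, permutation p = 0.00295 and 0.00338, adjusted p = 0.00885 and 0.0101), with r = -0.75 without the 2 farthest.

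After the GC trend of each library was removed, only the pair of Grin2a and Grin2b kept its r among these, at 0.90. Grin1 with Grin2d came to 0.28, Grin2c with Grin2d to 0.06 and Grin2c with Grin3a to 0.07, and Grin1 with Grin2c to -0.69. Grin1 instead had r = 0.88 with Grin2b and 0.76 with Grin2a, which had been 0.42 and 0.17 before removal. Grin2c moved the other way, to -0.54 with Grin2a and -0.58 with Grin2b, from -0.13 and 0.10. With length trends removed as well, r was 0.83 for Grin2a with Grin2b, 0.87 for Grin1 with Grin2b and 0.73 for Grin1 with Grin2a. Grin2c was then at -0.80 with Grin1, -0.71 with Grin2a and -0.75 with Grin2b. Whether these values of both signs come from the removal itself was not tested. Grin2a with Grin3a had r = 0.64 (rho = 0.51, permutation p = 0.00876 and 0.0566, adjusted p = 0.0219 and 0.106) as deposited, and r = 0.35 without the 2 farthest libraries, so that relation rests on them.

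**Figure D5:**
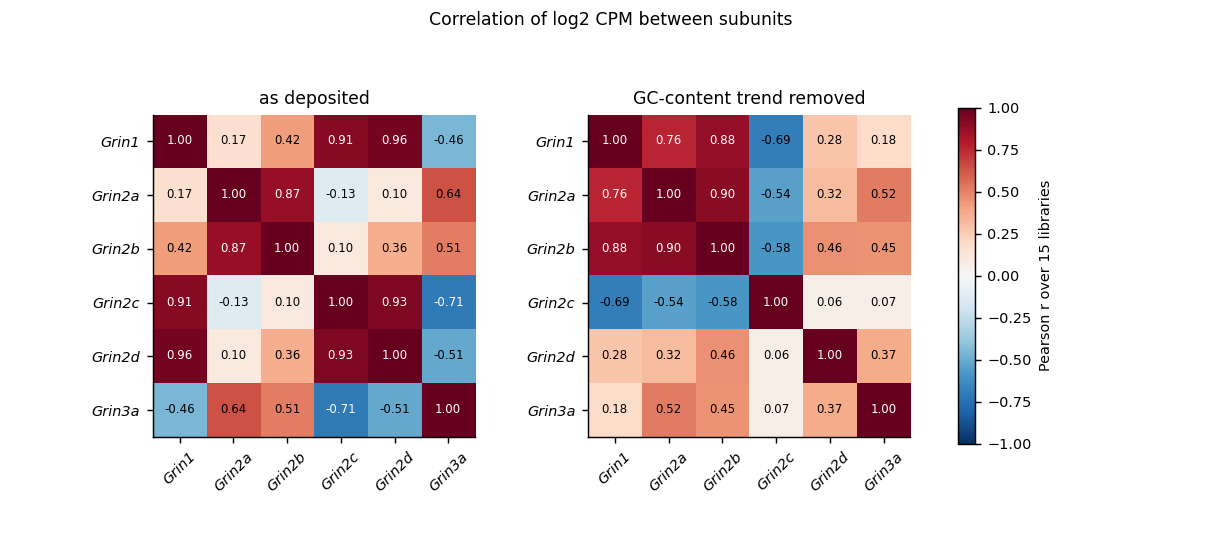
Pearson's r of log2 CPM between subunits over 15 libraries, from counts as deposited (left) and after removal of each library's GC trend (right), with colour from -1 to 1. The block of Grin1, Grin2c and Grin2d (0.91 to 0.96) is seen on the left only, while Grin2a with Grin2b is at 0.87 and 0.90.

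Grin2b was among the most variable genes within groups. Its SD on the log2 scale within groups was 0.43, the 99.0 percentile of 14110 genes over 1 CPM, against a median of 0.15. Grin2a and Grin2d both had 0.30, Grin1 0.25, Grin2c 0.19 and Grin3a 0.16. With the GC trend removed, the SD was 0.08 for Grin1, 0.12 for Grin2d and 0.11 for Grin2c, but 0.44 for Grin2b, 0.32 for Grin2a and 0.16 for Grin3a. With the length trend removed as well, Grin2b was at 0.35 and Grin2a at 0.24.

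Among 13895 genes, the 3 whose log2 CPM followed each member most closely were taken, and those of Grin1, Grin2c and Grin2d all had transcripts above the median GC content. For Grin1 they were Dctn1 (r = 0.997, GC 58.8%), Bag6 (r = 0.997, GC 59.9%) and Hgs (r = 0.996, GC 58.1%). For Grin2c they were Bcan, B4galt2 and Slc9a5 (r = 0.982, 0.980 and 0.977, GC 60.7%, 57.4% and 55.7%), and for Grin2d Agrn, Chpf2 and Iqsec2 (r = 0.984, 0.983 and 0.982, GC 56.5%, 58.4% and 59.6%). These values are a description over the same 15 libraries, which all genes share. With the GC trend removed r stayed at 0.905 or above for the 3 partners of Grin1 but was 0.393, -0.232 and -0.108 for those of Grin2c.

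The closest genes named for the other members all had transcripts below the median GC content, and those of Grin2a and Grin2b were long. For Grin2a they were Arfgef3 (r = 0.955, 14579 bases), Cdh6 (r = 0.936, 8167 bases) and Kcnq3 (r = 0.932, 11824 bases). For Grin2b they included Tnr (r = 0.946, 12202 bases) and Atp8a2 (r = 0.942, 12886 bases). For Grin3a they were Larp4b, Paqr3 and Asxl3 (r = 0.952, 0.942 and 0.940, GC 44.9%, 48.2% and 45.7%). No member was among the 3 closest genes of another.

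Genes around the receptor were read from 5 lists, and 0 genes of any list passed edgeR's test in any of the 7 comparisons. With ABX averaged over stages, 7 of 25 anchoring and trafficking partners had a positive and 18 a negative log2 fold change (median -0.09), beside a median of 0.01 over all 16816 genes. The other ionotropic glutamate receptors gave 7 positive and 5 negative (median 0.05), glutamate and co-agonist supply and uptake 8 and 10 of 18 tested (median -0.02), kinases and phosphatases 8 and 14 (median -0.05), and downstream calcium signalling 7 and 12 (median -0.09). At an unadjusted edgeR p under 0.05 the 5 lists gave 11, 4, 7, 7 and 5 genes in this order, beside 30.6% of all genes. The genes tested in these lists numbered 25, 12, 18, 22 and 19. DESeq2 called 11, 1, 3, 2 and 2, beside 11.8% of all genes. The NMDA subunits themselves gave 1 positive and 5 negative (median -0.31), and -0.07 with the GC trend removed. The 4 AMPA subunits were all positive (median 0.10), but 3 of 4 were negative with the GC trend removed (median -0.02).

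The partners nearest to the threshold for ABX were a neurofilament subunit and a scaffold of the postsynaptic density. Nefl, which binds GluN1, was at -0.30 (SE 0.07, edgeR adjusted p = 0.055), and Shank1, which links the receptor complex to the cytoskeleton, was at -0.55 (SE 0.13, edgeR adjusted p = 0.06). Shmt2, a mitochondrial enzyme that forms glycine, was at -0.33 (SE 0.09, edgeR adjusted p = 0.0683). Slc7a10, a carrier of D-serine and glycine, was at -0.25 (edgeR adjusted p = 0.0732), as was Ptpn5, the phosphatase that acts on GluN2B (edgeR adjusted p = 0.0726). Without pre-extinction ABX replicate 4, edgeR called all 5 of these genes, with 18.2% of all genes called, and Nefl, Shank1 and Shmt2 also without pre-extinction non-ABX replicate 4 (6.2% called).

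Removing the GC trend moved these genes in different ways. Nefl was at -0.33 (edgeR adjusted p = 0.021) and Shank1 at -0.21 (edgeR adjusted p = 0.0437), among 7 of 25 anchoring partners called lower beside 4.2% of all genes called, while Shmt2, Slc7a10 and Ptpn5 came to -0.11, -0.05 and -0.07 and did not pass. The kinase gene Mapk3, at 0.12 with ABX as deposited, was at 0.33 (edgeR adjusted p = 0.00745). Other genes taken for ABX were Grin3b (-0.70), Grik5 (-0.36), Crtc1 (-0.29) and Cdk5r1 (-0.17), with edgeR adjusted p from 0.0751 to 0.0903.

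For stage averaged over arms the genes nearest to the threshold were Mapk3, at 0.31 (SE 0.07, edgeR adjusted p = 0.0513), Slc1a5, a neutral amino acid carrier, at 0.36 (SE 0.09, edgeR adjusted p = 0.0601), and Gria4, an AMPA subunit, at -0.29 (SE 0.07, edgeR adjusted p = 0.0634). The neurotrophin gene Bdnf was at -0.32 (SE 0.08, edgeR adjusted p = 0.0774) and Akap5, which anchors kinases at the synapse, at -0.23 (SE 0.06, edgeR adjusted p = 0.0809). None of these passed, and all 5 were called without pre-extinction non-ABX replicate 3 (13.3% of all genes called) and also without pre-extinction ABX replicate 4 (4.45%). DESeq2 called all 5, with adjusted p from 0.00774 to 0.0213, beside 4.19% of all genes. Removing the GC trend gave 0.15 for Mapk3, 0.21 for Slc1a5, -0.19 for Bdnf and -0.14 for Akap5, which did not pass, and -0.20 for Gria4, which did (edgeR adjusted p = 0.0169), beside 2.23% of all genes. The kainate receptor gene Grik2 was at -0.23 (edgeR adjusted p = 0.0902), Akap9 at -0.24, Slc17a6 at -0.23, Ptk2b at 0.14 and Camk2a at 0.13.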

How the data were processed

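Libraries from bulk RNA of 15 mPFC samples used Clontech's SMARTer low-input kit, version V4, per the labels' protocols, which also speak of sorted cells although the source is dissected tissue. The authors deposited raw counts per Entrez gene. CASAVA 1.8.2, STAR 2.3.0 and build mm10 are named in the submitters' processing notes; the sources used here do not give the counting program or annotation. Of 27179 identifiers, 25275 matched a symbol in RefSeq (GRCm38.p6), with 99.7% of counts. Lengths, GC content and sequences came from GENCODE vM21 on the same build.

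Members and gene lists were chosen with earlier results of these data known. In R 4.3.3, edgeR 4.0.16 kept genes by filterByExpr (minimum count 10, minimum total 15), scaled by TMM (factors 0.969 to 1.025) and fitted 4 group means to all 15 libraries, with tests two-sided. The biological coefficient of variation was 0.112. SE is the fold change over the square root of F. CPM is TMM-scaled, log2 CPM has a prior count of 2. No 2 libraries were near-duplicates. The fits were tested on simulated data.

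Named genes were all members, list genes past the threshold or among the 2 of smallest p per averaged comparison, and the 3 genes of highest r per member; some of these are not reported here. Alternatives were DESeq2 1.42.0, voom with quality weights (limma 3.58.1), RLE scaling, no filter, a replicate block, removal of a GC spline (5 degrees of freedom per library, 91.2% of tested genes), longest-transcript length, and each library left out. Removal of length trends too and coding length were chosen after seeing the data.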

Additional observations from a re-analysis of the deposited data

Results flagged for a closer look

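One value stood apart within its group. Grin2c in pre-extinction ABX replicate 4 was 42.9 CPM, beside 32.7 to 34.3 CPM in the other 3 libraries of the group, a gap past Dixon's critical value for 4 samples. The same library had the highest GC slope of its group (0.042, beside -0.411 to -0.131) and the highest Grin1 and Grin2d of the group. Chance flags about 1 in 20 groups, and 21 were examined.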

How the results depend on the processing

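Of 924 alternative log2 fold changes of the subunits, 868 kept their direction and side of the threshold, 18 passed it in addition and 38 changed sign, 21 of them among the 84 with a GC trend removed. The counts of all genes called moved most. Without a filter they were 2 for ABX before extinction and 2 for stage in non-ABX libraries. In the order ABX before, ABX after, stage non-ABX, stage ABX, interaction, ABX averaged and stage averaged, DESeq2 called 15, 182, 19, 282, 4, 1977 and 704 genes. Voom with quality weights called 306 (ABX after), 3191 (stage non-ABX), 465 (stage ABX), 902 (ABX averaged) and 6358 (stage averaged). With the GC trend removed 59, 2, 77, 644 and 342 were called in the same order, and with GC and length trends removed 174, 3, 143, 664 and 410. The averaged ABX calls were 27 higher and 78 lower as deposited and 271 higher and 373 lower with the GC trend removed. The causes of these shifts were not tested.

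Subunits called numbered 3 with DESeq2 for ABX averaged, and with voom 2 for stage in non-ABX libraries (Grin1 and Grin2d, adjusted p = 0.0261 and 0.0401), 1 for ABX averaged (Grin2c) and 4 for stage averaged. Under voom the sign changed for ABX before extinction in Grin2a (0.15) and Grin2b (0.03), for ABX averaged in Grin2a (0.00) and for the interaction in Grin1 (-0.07).

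With the GC trend removed, Grin2c changed sign in ABX before (0.03), ABX after (0.05), stage non-ABX (-0.04), stage ABX (-0.02), ABX averaged (0.04) and stage averaged (-0.03). So did Grin3a in ABX after (-0.02), Grin2b in stage averaged (0.00) and Grin1 and Grin2d in the interaction (-0.04 each). With length removed too, Grin2c was at 0.07, 0.09, -0.02, -0.01, 0.08 and -0.01 in the same comparisons, Grin2d at 0.04 (ABX before), 0.01 (ABX averaged) and -0.05 (interaction), Grin1 at -0.04 (interaction) and Grin2b at 0.09 (stage averaged).

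The labels give no meaning to the replicate numbers, and over all genes the deviations of same-numbered libraries had a median r of 0.018 (-0.491 to 0.374, 21 pairs), beside 0.028 for other pairs, so the numbers were not used to pair libraries. Pairs of replicate 1 libraries were all positive (0.018 to 0.361), and Grin2a and Grin2b were lowest in replicate 1 of every group. With a replicate block 666 genes were called for ABX averaged and 96 for stage averaged, no subunit was called, the ABX averaged values of Grin2a and Grin2b were -0.19 and -0.38 (edgeR adjusted p = 0.121 and 0.0731), and Grin2b turned to -0.05 for stage in non-ABX libraries.

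With 1 library left out, all genes called ranged from 1 to 28 (ABX before), 0 to 13 (ABX after), 0 to 1 (stage non-ABX), 3 to 237 (stage ABX), 0 to 0 (interaction), 4 (without pre-extinction non-ABX replicate 3) to 3057 (without pre-extinction ABX replicate 4) for ABX averaged and 14 (without pre-extinction non-ABX replicate 4) to 2262 (without pre-extinction non-ABX replicate 3) for stage averaged. Subunits called ranged from 0 to 3 for ABX averaged and 0 to 2 for stage averaged, and were 0 in the other comparisons. Signs changed in 12 of 630 such values: Grin2a in ABX before (0.01 and 0.04 in a range from -0.17), Grin3a in ABX after (-0.10, -0.03 and -0.02, up to 0.09), Grin2b in stage non-ABX (-0.06 to 0.28) and stage averaged (-0.17 to 0.03), and in the interaction Grin1 (-0.15 to 0.18), Grin2c (-0.03 to 0.24) and Grin2d (-0.14 to 0.31). The differences of the Grin2a to Grin2b log2 ratio kept their signs, at 0.05 to 0.15 (ABX before), 0.15 to 0.33 (ABX after), -0.39 to -0.21 (stage non-ABX) and -0.24 to -0.08 (stage ABX). With group means removed, 2 of the 3 closest genes stayed for Grin1, 1 each for Grin2a, Grin2d and Grin3a and 0 for Grin2b and Grin2c. Levels per kilobase moved with the longest transcript for Grin1 (74.5), Grin2a (1.71) and Grin3a (3.35) and with coding length for all members (Grin1 108, Grin2a 5.70, Grin2b 21.0, Grin2c 11.8, Grin2d 1.41, Grin3a 7.37). Each subunit had 154 or more counts in every library. The part of depth in the errors was not tested.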
